A study of Danio rerio with 17 samples.

Results

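The radial glia genes gfap, cyp19a1b, slc1a2b and fabp7a were followed in whole adult zebrafish brains after a dose of domoic acid that caused visible symptoms. They were taken by their symbols on the array, with earlier results of these data known, and make up 4 of the 8793 genes named by a single symbol and 6 of the 15502 probe sets tested. A single probe set each reads gfap, slc1a2b and fabp7a, and 3 read cyp19a1b: a main one, one whose name ends in a_at and one whose name ends in x_at.

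Radial glia are the astroglia-like cells of the teleost brain. Their cell bodies line the ventricles, their processes span the tissue, and they persist in the adult, where some of them divide and give rise to neurons. They carry out much of what astrocytes do in mammals, including the uptake of glutamate. In fish they are also the cells that make brain aromatase, the enzyme that turns androgens into estrogens. Domoic acid (DA) is an algal toxin that activates kainate and AMPA receptors, which are glutamate receptors. In mammals, excitotoxic injury is commonly followed by a glial reaction in which GFAP rises, so the question addressed here is whether these glial genes moved after DA.

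The animals were wild-type zebrafish of the AB strain, 1 year old when they were injected into the body cavity. DA fish received 1.1 µg of DA per g of fish, and their symptoms passed soon after injection; control fish received the same volume of the vehicle, phosphate-buffered saline. Brains were taken 24, 48 or 168 h later, and each array (Affymetrix Zebrafish Genome array) read the RNA of a pool of 3 to 4 brains. DA brains had 3 arrays at 24 h, 3 at 48 h and 3 at 168 h, against 3, 2 and 3 control arrays, 17 in all, and the third 48 h control was not analysed here. All levels below are log2 intensities of one probe set, as deposited, and are compared only within that probe set. A pool of whole brains cannot tell fewer glia from less RNA per glial cell.

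All arrays had a similar spread, with medians of 6.11 to 6.23. Of them, 2 arrays at 24 h stood apart. DA replicate 1 had a mean of 5.74 over the blank probe sets, which match no fish gene, against 4.94 to 5.18 on the other 16 arrays. Control replicate 3 had a difference of 4.63 between the 3′ and 5′ GAPDH control probe sets, a sign of RNA quality, against at most 3.70 on the other 16. Neuronal markers were above the brightest blank on every array for 9 of 9 measured genes and oligodendrocyte markers for 5 of 5. Of 33 measured genes of a wider radial glia and astroglia list, 20 were above the brightest blank on every array and 8 on none.

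The probe sets differed in how far they stood above background, which does not rank the genes by their RNA. The slc1a2b probe set averaged 13.5, the main cyp19a1b probe set 12.2 and the fabp7a probe set 10.8, and each was above the brightest of 17 blanks on all 17 arrays. The gfap probe set averaged 6.99 and was above the brightest blank, which lay between 6.28 and 6.94, on 14 of 17 arrays. The other 3 were 24 h arrays: DA replicates 1 and 2 and control replicate 2. The remaining cyp19a1b probe sets, a_at with a mean of 4.36 and x_at with 5.55, were above the brightest blank on 0 of 17 arrays, so no change is read from them. These 4 probe sets, gfap with its 3 arrays at background included, ranged over 0.96 (gfap), 0.79 (cyp19a1b), 0.78 (fabp7a) and 0.76 (slc1a2b) log2 units across all arrays. Their spread within groups was ordinary for this table: the residual SD was 0.18, 0.21, 0.16 and 0.20 for the same 4 genes, against a median of 0.16 over all probe sets tested.

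**Figure D1:**
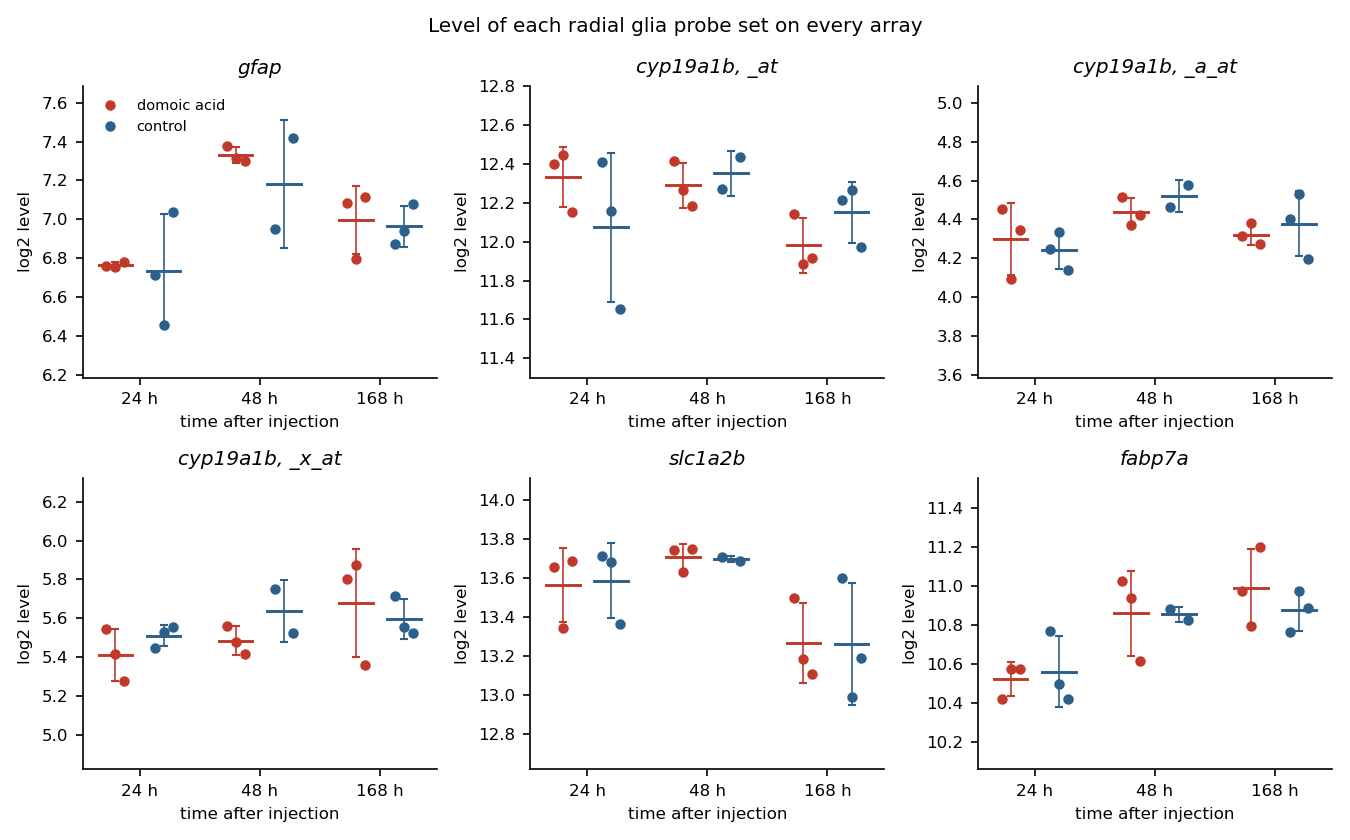
Log2 level (vertical axis) of each of the 6 probe sets on every array, by hours after injection; red points are DA arrays and blue points controls, each bar is a group mean and each whisker 1 SD. All panels span the same number of log2 units; the DA and control points overlap at each time in all 6 panels.

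No DA response was detectable in any of the 4 genes. In limma with Benjamini-Hochberg adjustment over all probe sets tested, 0 of the 6 probe sets passed an adjusted p of 0.05 at 24 h, where 0.0323% of all probe sets passed. At 48 h and at 168 h it was again 0 of 6, against 0% of all probe sets each time. None of the 6 had an unadjusted p under 0.05 at any of the 3 times. DA and control arrays overlapped for 6 of 6 probe sets at every time; the DA arrays lay all above or all below the controls for 12.8% of all probe sets at 24 h, 27.3% at 48 h and 10.9% at 168 h. Over the main cyp19a1b probe set and those of gfap, slc1a2b and fabp7a, the 95% interval of the measured DA over control fold reached from 0.785 to 1.51 at 24 h, from 0.739 to 1.4 at 48 h and from 0.705 to 1.31 at 168 h. For gfap at 24 h, where 3 of the 6 arrays were not above the brightest blank, the interval describes the signal of the probe set and sets no bound on a change in gfap RNA.

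The gfap gene encodes the intermediate filament protein of astroglia, and in mammals it is the usual readout of a glial reaction. At 24 h gfap was at 6.76, 6.76 and 6.78 on the DA arrays, against 6.71, 6.46 and 7.04 on the control arrays. At 48 h it was at 7.38, 7.32 and 7.30 on the DA arrays, against 6.95 and 7.42 on the controls. At 168 h it was at 7.08, 6.80 and 7.11 on the DA arrays, against 6.87, 6.94 and 7.08 on the controls. At 24 and 48 h the DA arrays were tightly grouped and fell between the control arrays, and at 168 h they were spread across the controls. The difference, DA minus control, was 0.03 at 24 h (95% interval -0.27 to 0.33), 0.15 at 48 h (-0.19 to 0.48) and 0.03 at 168 h (-0.27 to 0.33). The 48 h value rests on 2 controls and turned to -0.08 without control replicate 1.

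The cyp19a1b gene encodes brain aromatase. On its main probe set it was at 12.40, 12.45 and 12.15 on the DA arrays at 24 h, against 12.41, 12.16 and 11.66 on the controls. At 48 h it was at 12.42, 12.27 and 12.19 on the DA arrays, against 12.27 and 12.43 on the controls. At 168 h it was at 12.14, 11.89 and 11.91 on the DA arrays, against 12.22, 12.27 and 11.97 on the controls. The one low value of the 24 h set is control replicate 3, the array with the large GAPDH difference. The 24 h difference of 0.26 (95% interval -0.08 to 0.59; adjusted p = 0.494 in limma) was 0.05 without that array and 0.02 with DA replicate 1 left out as well. Over the 17 arrays the level of cyp19a1b had a correlation of -0.54 with the GAPDH difference, a description of arrays that share groups.

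The later differences of cyp19a1b were -0.06 at 48 h and -0.17 at 168 h (95% interval -0.51 to 0.16). The shift of its difference between 24 h and 168 h, -0.43, did not pass (adjusted p = 0.594), and neither did the test over all 3 times (adjusted p = 0.83). For that test of a DA effect that differs between times, 0 of the 6 probe sets passed in limma and 0 had an unadjusted p under 0.05, with 0% of all probe sets passing. Markers of the eye, which could be carried into a brain pool, took the same signs. So did the median differences of vessel (0.18, -0.0095 and -0.10), ependyma (0.10, -0.0055 and -0.07) and erythrocyte markers (0.13, -0.33 and -0.02) at the 3 times. Those of pineal and pituitary markers did so at 24 and 168 h only. Those of neuron, oligodendrocyte, microglia, and muscle and skin markers differed in sign at 24 or 168 h. Beside them, the median over all probe sets tested was 0.0076, 0.00055 and -0.022 at the 3 times. At 48 h the vessel and ependyma medians were close to 0, so nothing is read from their signs there. Without DA replicate 1 the 24 h median was -0.085 for pituitary and 0.0086 for pineal markers. It was then 0.090 for vessel, 0.086 for ependyma and 0.11 for erythrocyte markers. Many of these markers were at background. Above the brightest blank on 0 arrays were 5 of 5 pituitary, 1 of 2 pineal, 3 of 4 vessel, 2 of 3 ependyma and 2 of 4 erythrocyte markers. The mean of 11 measured retina and lens markers was 5.71 to 6.48 on the DA arrays at 24 h, against 5.61 to 5.85 on the controls, and 5.51 to 5.68 on the DA arrays at 168 h, against 5.88 to 5.89 on the controls. At 24 h 10 of the 11 were higher in DA brains (median difference 0.17), but 4 were without DA replicate 1 (median -0.05) and 9 without control replicate 3 as well (median 0.09). At 168 h 0 of the 11 were higher (median -0.21). Of the 11, 7 were above the brightest blank on 0 arrays. The part of eye tissue or of the other cell types in the cyp19a1b values was not tested.

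The slc1a2b gene encodes a glutamate transporter of the EAAT2 type, which clears glutamate from the synaptic space. It was at 13.66, 13.35 and 13.69 on the DA arrays at 24 h, against 13.72, 13.68 and 13.37 on the controls. At 48 h all 5 arrays lay close together, at 13.75, 13.63 and 13.75 for DA and 13.71 and 13.69 for controls. At 168 h it was at 13.50, 13.19 and 13.11 on the DA arrays, against 13.60, 12.99 and 13.19 on the controls. Each time the DA and control arrays covered much the same range. The DA differences were -0.02 at 24 h (95% interval -0.35 to 0.30), 0.01 at 48 h (-0.35 to 0.37) and 0.01 at 168 h (-0.32 to 0.33).

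The fabp7a gene encodes the brain fatty acid binding protein, a lipid chaperone of radial glia and neural progenitors. It was at 10.42, 10.57 and 10.58 on the DA arrays at 24 h, against 10.77, 10.50 and 10.42 on the controls. At 48 h it was at 11.03, 10.94 and 10.61 on the DA arrays, against 10.88 and 10.83 on the controls. At 168 h it was at 10.97, 10.80 and 11.20 on the DA arrays, against 10.76, 10.98 and 10.89 on the controls. Levels were lowest on the 24 h arrays of both treatments, with one 24 h control among the later values. The DA differences were -0.04 at 24 h (95% interval -0.31 to 0.24), 0.01 at 48 h (-0.30 to 0.31) and 0.11 at 168 h (-0.16 to 0.39).

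Averaged over the 3 times, the DA difference was 0.07 for gfap, 0.01 for cyp19a1b, -0.0026 for slc1a2b and 0.03 for fabp7a. The 95% intervals of these means, as DA over control folds, reached from 0.872 to 1.19, narrower than at any single time. The upper end, 1.19, is that of gfap, whose mean takes in its 24 h arrays at background. The gfap interval therefore describes the signal of the probe set and sets no bound on a change in gfap RNA. In limma 0 of the 6 probe sets passed and 0 had an unadjusted p under 0.05, with 0% of all probe sets passing. A two-sided exact permutation test, relabelling arrays within each time in all 4000 ways, gave p = 0.432 for gfap, 0.941 for cyp19a1b, 0.975 for slc1a2b and 0.730 for fabp7a (adjusted p = 0.975 for each over the 6 probe sets; the smallest p it can give is 0.00025).

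**Figure D2:**
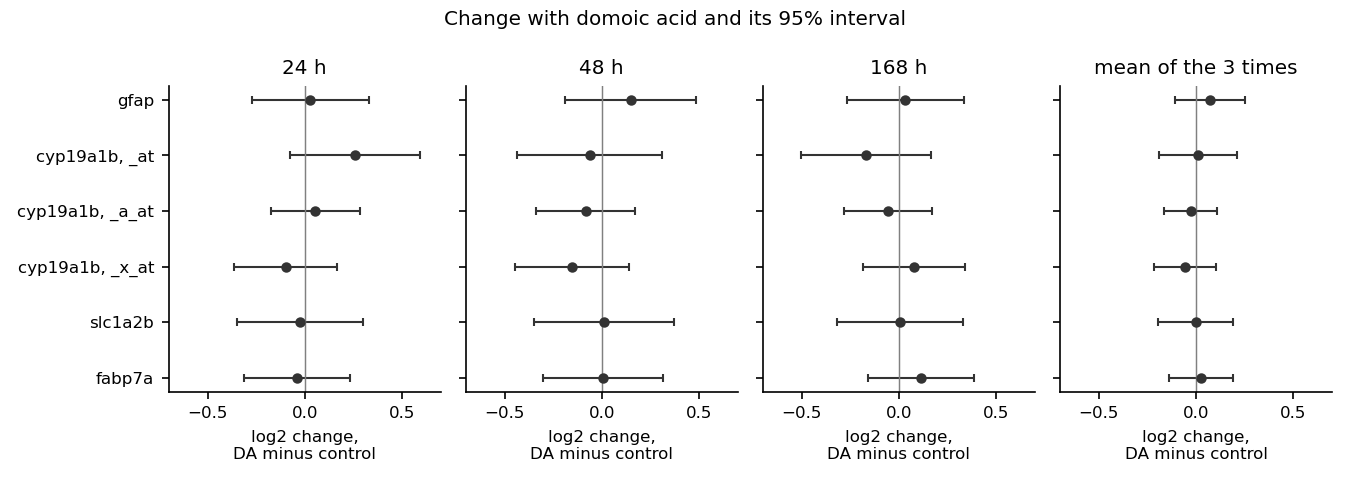
DA minus control difference (horizontal axis, log2) of each probe set at 24, 48 and 168 h and averaged over the 3 times, with its 95% interval from limma. Every interval includes 0; the largest difference is 0.26, for the main cyp19a1b probe set at 24 h.

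Levels were next compared between the times after injection. Tested within one treatment, 0 of the 6 probe sets passed in limma for time in DA brains (1.15% of all probe sets passed), although gfap, fabp7a and slc1a2b had unadjusted p of 0.00394, 0.00693 and 0.0304. In control brains it was also 0 of 6 (0.4% of all probe sets passed), with unadjusted p of 0.0376 for gfap and 0.0415 for slc1a2b. Of single pairs of times, DA brains had 0 of 6 passing for DA 48 h minus 24 h (0.361% of all probe sets passed), 168 h minus 24 h (0.232%) and 168 h minus 48 h (1.04%), and the lowest adjusted p was that of gfap at 48 h minus 24 h (0.57, adjusted p = 0.0764). Control brains also had 0 of 6 passing for 48 h minus 24 h (0%), 168 h minus 24 h (0.445%) and 168 h minus 48 h (0.194%). Averaging both treatments, a comparison added after these values were seen, 2 of the 6 passed, gfap (adjusted p = 0.0331) and fabp7a (adjusted p = 0.0443), where 3.97% of all probe sets passed. The adjusted p of slc1a2b in that test was 0.0704, and that of the main cyp19a1b probe set 0.408.

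The level of gfap was highest at 48 h. Over both treatments it was 6.95 to 7.42 on the 5 arrays at 48 h, against 6.46 to 7.04 on the 6 arrays at 24 h, a rise of 0.51 (95% interval 0.28 to 0.73; adjusted p = 0.0452; 0.6% of all probe sets passed for 48 h against 24 h). At 24 h gfap was not above the brightest blank on DA replicates 1 and 2 and control replicate 2. The rise and its interval therefore describe the signal of the probe set and set no bound on a change in gfap RNA. At 168 h gfap was at 6.80 to 7.11, and its difference of 0.23 from 24 h had an adjusted p of 0.351. The level of fabp7a was 10.76 to 11.20 at 168 h, against 10.42 to 10.77 at 24 h, a rise of 0.39 (95% interval 0.20 to 0.59; adjusted p = 0.0472; 1.35% of all probe sets passed). It was 0.32 higher at 48 h than at 24 h, with an adjusted p of 0.139. The level of slc1a2b was 12.99 to 13.60 at 168 h, against 13.63 to 13.75 at 48 h, a difference of -0.44 (95% interval -0.68 to -0.20; adjusted p = 0.0439; 3.97% of all probe sets passed for 168 h against 48 h). By mean over both treatments, gfap was highest at 48 h, fabp7a at 168 h, and slc1a2b was lowest at 168 h. The other steps behind these orders did not pass in limma. They were gfap from 48 to 168 h (-0.28, adjusted p = 0.178), fabp7a from 48 to 168 h (0.08, adjusted p = 0.776) and slc1a2b from 24 to 168 h (-0.31, adjusted p = 0.212). Courses were not compared between genes by a test. The ranges of the times compared overlapped for gfap and fabp7a, and those of slc1a2b at 48 and 168 h did not meet. The share of all probe sets with separate ranges was not counted, so nothing is read from this. For 168 h against 48 h, 17.2% of all probe sets had an unadjusted p under 0.05 in limma.

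These calls over time were close to the threshold. With each of the 17 arrays left out in turn, the gfap rise kept an adjusted p under 0.05 in 4 of 17 fits, the fabp7a rise in 3 and the slc1a2b fall in 7; the size stayed at 0.39 to 0.62, 0.34 to 0.44 and -0.53 to -0.37. The gfap change was 0.62 without control replicate 1 at 48 h and 0.39 without control replicate 2, the only controls of that time. The hybridisation spike-ins, added after extraction, were also uneven over time, with means of 9.49 to 10.6 on DA arrays and 10.4 to 11 on control arrays at 24 h, and 9.27 to 9.40 on DA arrays and 9.70 to 10.8 on control arrays at 48 h. At 168 h they were at 9.44 to 10.0 on DA arrays and 9.55 to 9.71 on control arrays. Over the 17 arrays gfap had a correlation of -0.64 with the spike-in level, fabp7a -0.48 and slc1a2b 0.30. With the spike-in level in the fit, gfap was 0.35 higher at 48 h (adjusted p = 0.377), fabp7a 0.38 higher at 168 h (adjusted p = 0.346) and slc1a2b -0.41 at 168 h (adjusted p = 0.0511).

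**Figure D3:**
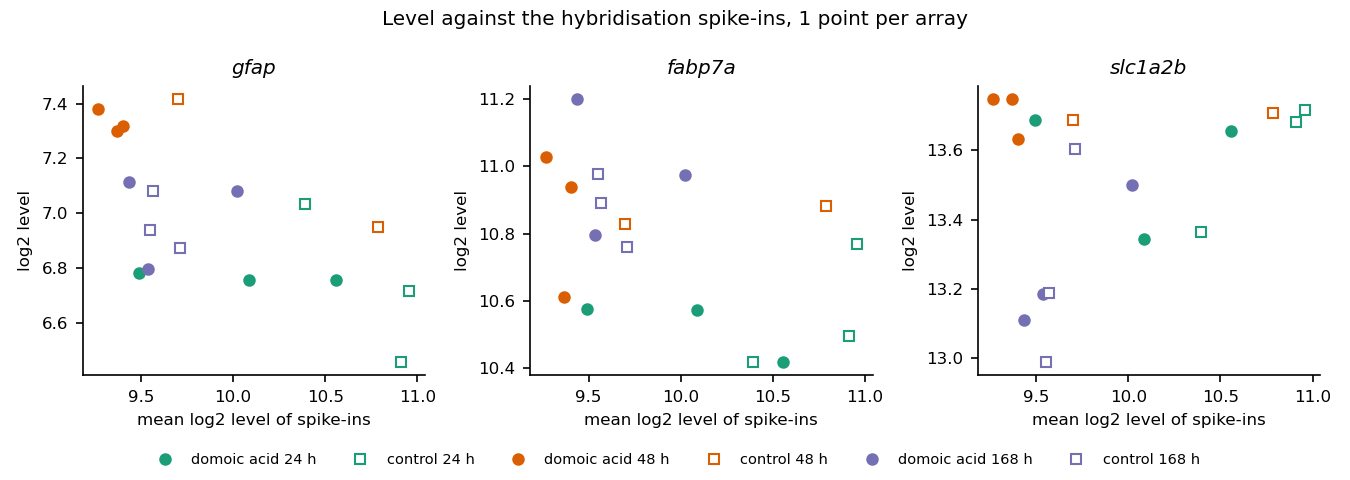
Log2 level (vertical axis) of gfap, fabp7a and slc1a2b against the mean log2 level of the hybridisation spike-ins (horizontal axis), 1 point per array; filled circles are DA, open squares controls, and colour gives the time. The 24 h controls have high spike-in levels and gfap at 7.04 or below, and the 48 h DA arrays have the lowest spike-in levels and gfap at 7.30 or above.

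Markers of other cell types were also highest at 48 h. Over both treatments, the mean of 5 measured oligodendrocyte markers was 9.70 to 10.06 at 48 h, against 9.51 to 9.71 at 24 h and 9.44 to 9.74 at 168 h. For ependyma and erythrocyte markers, both group means at 48 h were above those of all other groups. This was not so for neuron, vessel, eye, pineal, pituitary, or muscle and skin markers. Above the brightest blank on 0 arrays were 2 of 3 ependyma and 2 of 4 erythrocyte markers. The mean of 12 measured microglia and leukocyte markers was 6.93 to 7.11 on DA arrays and 6.71 to 6.89 on control arrays at 48 h, against 6.48 to 6.66 on DA arrays and 6.53 to 6.70 on control arrays at 24 h. Of the 12, 2 were called in limma between 24 and 48 h over both treatments, against 0.6% of all probe sets. These were cd74a and cd74b, which encode the invariant chain of MHC class II. They rose by 0.88 (adjusted p = 0.00418) and 0.79 (adjusted p = 0.00418). Both fell again at 168 h against 48 h, as did lcp1, a leukocyte actin-bundling protein, and lgals9l1, a galectin (4 of 12 called, against 3.97% of all probe sets). Of the 12, 3 were above the brightest blank on every array and 6, lgals9l1 among them, on none. Also called lower at 168 h than at 48 h were olig2 (1 of 5 oligodendrocyte markers) and spag6 (1 of 3 ependyma markers). So were epb41b (1 of 4 erythrocyte markers) and rpe65a (1 of 11 eye markers). Both spag6 and epb41b were above the brightest blank on 0 arrays. The part of any of these cell types in the gfap rise was not tested. Of the 33 measured genes of the radial glia and astroglia list, sox9b passed between times. Over both treatments it was lower at 168 h than at 24 h (-0.40, adjusted p = 0.041) and than at 48 h (-0.39, adjusted p = 0.0353). This is 1 of 33 called each time, beside 1.35% of all probe sets against 24 h and 3.97% against 48 h, so nothing is read from it about the list. Of the other 5 glial lists, given below, that of glial reactivity had sox11b and cebpd called higher at 168 h than at 24 h (2 of 34). Against 48 h it had sox11b called higher and timp2a lower at 168 h. The estrogen list had hsd17b12a called higher at 168 h than at 48 h (1 of 15), and the remaining lists had no call. Of these genes, cebpd was above the brightest blank on 10 of 17 arrays.

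Ordered by group mean, gfap was highest in DA brains at 48 h (7.33 ± 0.04, SD, n = 3) and control brains at 48 h (7.18 ± 0.33, n = 2). It followed in DA and control brains at 168 h (7.0 ± 0.17 and 6.96 ± 0.11) and in DA and control brains at 24 h (6.77 ± 0.01 and 6.74 ± 0.29, n = 3 each). For slc1a2b the order was DA then control at 48 h (13.71 ± 0.07 and 13.70 ± 0.02), control then DA at 24 h (13.59 ± 0.19 and 13.56 ± 0.19), and DA then control at 168 h (13.26 ± 0.21 and 13.26 ± 0.31). For fabp7a it was DA then control at 168 h (10.99 ± 0.20 and 10.88 ± 0.11), DA then control at 48 h (10.86 ± 0.22 and 10.85 ± 0.04), and control then DA at 24 h (10.56 ± 0.18 and 10.52 ± 0.09). In all 3 the times grouped together whatever the treatment. The order of the main cyp19a1b probe set mixed the times: control at 48 h (12.35 ± 0.12), DA at 24 h (12.33 ± 0.16), DA at 48 h (12.29 ± 0.12), control at 168 h (12.15 ± 0.16), control at 24 h (12.07 ± 0.38) and DA at 168 h (11.98 ± 0.14). No pair of neighbours in any of these orders passed in limma; the smallest unadjusted p was 0.0595, for fabp7a in control brains at 48 h against control brains at 24 h.

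The 4 genes had no single pattern over the arrays by correlation, a description without a test. Over the 17 arrays, which share groups, the Pearson correlation was 0.51 between gfap and fabp7a and 0.51 between cyp19a1b and slc1a2b, while it was -0.33 between slc1a2b and fabp7a and 0.04 between gfap and cyp19a1b. For the deviations from group means, the first pair was at 0.14 and the second at 0.36. The highest correlation of deviations among the 4 genes was 0.43, between cyp19a1b and fabp7a, whose levels had a correlation of 0.04. The genes whose levels over the 17 arrays were most like gfap were yap1 (r = 0.87), prph (0.87), sst6.2 (0.86), nck1a (0.85) and tmed3 (0.85). For cyp19a1b they were mecr (0.89), ubb (0.88), rpl5a (0.86), lin37 (0.84) and ciarta (0.84). For slc1a2b they were rab2a (r = 0.90), bsg (0.86), clasp2 (0.86), atp6v1g1 (0.86) and ndrg3a (0.85), and for fabp7a kat8 (0.81), atl2 (0.80), cldn12 (0.80), nudc (0.80) and ddx39aa (0.79). The prph value is from a probe set dimmer than its brightest one, which was above the brightest blank on 0 of 17 arrays.

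Related gene lists, chosen with earlier results of these data known, gave the same count for DA. None of their measured genes passed in limma at 24, 48 or 168 h. Of all probe sets, 0.0323% passed at 24 h and 0% at 48 and at 168 h, so nothing is read from this about the lists. At an unadjusted p under 0.05 in limma, the radial glia and astroglia list had 1 gene higher and 2 lower in DA brains at 24 h, 2 higher at 48 h, and 1 higher and 1 lower at 168 h. The other 5 lists had at most 1 gene higher and 5 lower at any time, beside 13.4%, 4.73% and 3.02% of all probe sets at that level at the 3 times. Many list genes were at background: above the brightest blank on 0 arrays were 8 of 33 genes for radial glia and astroglia, 8 of 15 for estrogen, 1 of 11 for glutamate uptake, 4 of 6 for fatty acid binding proteins, 6 of 14 for intermediate filaments and 14 of 34 for glial reactivity. Of 33 measured genes of the radial glia and astroglia list, 18 were higher in DA brains at 24 h, 16 at 48 h and 13 at 168 h. Their median differences were 0.06, -0.04 and -0.06, beside medians of 0.01, 0.00 and -0.02 over all probe sets tested. At 24 h the direction rests on 1 array: 15 were higher without DA replicate 1 (median -0.03) and 13 without control replicate 3 as well (median -0.05). The genes with the smallest p at a time were nfixb and sox9b, which encode transcription factors of glial differentiation. The difference of nfixb was -0.67 at 24 h (adjusted p = 0.163), -0.13 at 48 h and -0.43 at 168 h. At 24 h it passed with DA replicate 1 left out, a fit in which 1.4% of all probe sets passed. It also passed there with control replicate 3 left out as well (1.53%).

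The brighter sox9b probe set was at 8.95, 9.0 and 8.90 on the DA arrays at 48 h, against 8.22 and 8.60 on the controls. At 168 h it was at 8.71, 8.24 and 8.53 on the DA arrays, against 7.95, 8.19 and 8.10 on the controls. DA arrays were above controls at both times, with differences of 0.54 (adjusted p = 0.719) and 0.41 (adjusted p = 0.999), but at 24 h the difference was -0.35 (adjusted p = 0.258). DA arrays lay all above or all below the controls for 27.3% of all probe sets at 48 h and 10.9% at 168 h. A further sox9b probe set was at 5.68 to 6.12, below the brightest blank of every array, and no change is read from it. The Notch target her4.2, a marker of radial glia, differed by 0.43 at 48 h (adjusted p = 0.99996) and was above the brightest blank on 9 of 17 arrays. Its other probe set differed by 0.23 at 48 h (adjusted p = 0.99996 in limma). Vimentin (vim), the partner filament of gfap, differed by -0.04, -0.17 and -0.32 at the 3 times. None of these differences passed in limma, and vim was singled out after its values were seen.

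Among 11 measured genes of glutamate uptake and the glutamate-glutamine cycle, 7, 6 and 8 were higher in DA brains at 24, 48 and 168 h, with medians of 0.07, 0.06 and 0.07. The neutral amino acid transporter slc1a4, of the same family as slc1a2b, was at 9.25, 8.93 and 8.98 on the DA arrays at 48 h, against 8.15 and 8.47 on the controls. Its groups did not overlap at 48 h, as was the case for 27.3% of all probe sets, and the difference of 0.74 had an adjusted p of 0.501. Another glial glutamate transporter, slc1a3a, differed by 0.34 at 48 h (adjusted p = 0.99996) and was above the brightest blank on 10 of 17 arrays.

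Estrogen synthesis and signalling had 15 measured genes, of which 11, 8 and 4 were higher in DA brains at 24, 48 and 168 h (medians 0.06, 0.06 and -0.08). Without DA replicate 1 the 24 h count was 7 (median -0.02). The estrogen-related receptor gene esrrga differed by 0.47 at 24 h (adjusted p = 0.326), where DA replicate 1 was at 7.62 and the other DA arrays at 6.79 and 6.89, against 6.49, 6.73 and 6.66 on the controls. It was above the brightest blank on 12 of 17 arrays. All of its 24 h controls were below, so the difference sets no bound on a change in esrrga RNA. The receptor gene esr1 was above the brightest blank on 0 of 17 arrays. Of 6 measured fatty acid binding proteins other than fabp7a, 4, 3 and 1 were higher in DA brains, and 2 were at 24 h without DA replicate 1.

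Of 14 measured intermediate filament genes, 5, 5 and 6 were higher in DA brains at the 3 times (medians -0.05, -0.02 and -0.03). At 24 h 2 were higher without DA replicate 1 (median -0.09). The neuronal filament gene neff1 was at 9.43, 8.66 and 8.58 on the DA arrays at 24 h, against 10.29, 9.92 and 10.53 on the controls. All DA arrays were below all controls, where 12.8% of all probe sets had DA arrays all above or all below the controls. The difference of -1.36 (95% interval -1.93 to -0.78) had an adjusted p of 0.0729. It passed without DA replicate 1, where 1.4% of all probe sets passed, and with control replicate 3 left out as well (1.53%). With all arrays 0.0323% passed. At 48 and 168 h neff1 differed by -0.58 and -0.42, and neither difference passed. The other neff1 probe set, dimmer at 6.04 to 6.72 over all arrays, differed by -0.09 at 24 h (adjusted p = 0.808 in limma). Of 34 measured genes of glial reactivity and injury-induced proliferation, 23, 13 and 11 were higher in DA brains (medians 0.08, -0.05 and -0.03). At 24 h 20 were higher without DA replicate 1 (median 0.03) and 18 without control replicate 3 as well (median 0.0032). The signalling kinase jak1 was at 7.68, 7.17 and 7.30 on the DA arrays at 24 h, against 7.89, 7.92 and 8.04 on the controls. Its difference of -0.56 had an adjusted p of 0.157. At 24 h it passed without DA replicate 1 and did not with control replicate 3 left out as well. At 48 and 168 h jak1 differed by -0.36 (adjusted p = 0.99996 in limma) and -0.29 (adjusted p = 0.999). Averaged over the 3 times, jak1, neff1 and nfixb were called lower in DA brains in both of these fits. There 0.413% and 0.755% of all probe sets passed, against 0% with all arrays. The cytokine signalling inhibitor socs3b differed by -0.55 at 24 h (adjusted p = 0.207) and was above the brightest blank on 4 of 17 arrays.

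**Figure D4:**
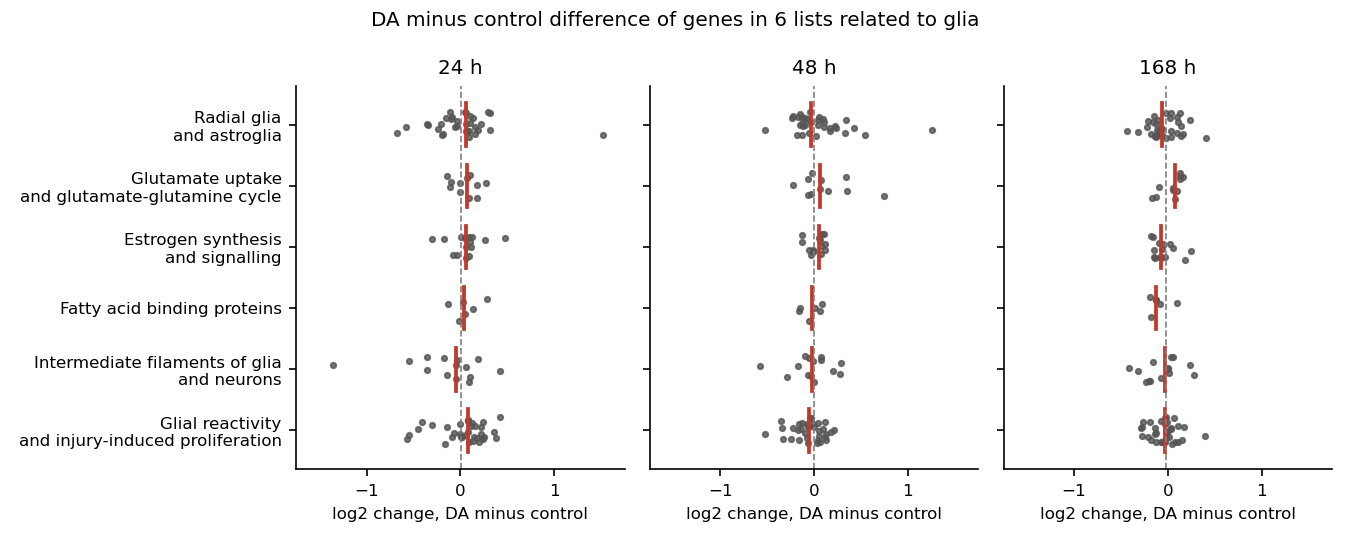
DA minus control difference (log2) at 24, 48 and 168 h for every measured gene of 6 glial lists, 1 point per gene, those not above the blanks included; the red bar is the median of a list and the dashed line the median of all probe sets tested. List medians lie near the dashed line, and no point shown passed the test.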

How the data were processed

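RNA from pools of 3 to 4 whole brains was read on Affymetrix Zebrafish Genome arrays. The values are log2 intensities deposited by the authors, 1 per probe set and array. Per the submitters' processing notes, oligo, RMA and limma were used, with versions and genome build not given in the sources used here. Nothing was renormalized, and no filter on low values was used.

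A model with 1 mean per group over 17 arrays was fitted in limma 3.58.1 (R 4.3.3) to 15502 of 15617 probe sets, leaving out 115 control probe sets. P-values were adjusted (Benjamini-Hochberg) over all of them, with a threshold of 0.05. They set a difference between groups against the spread between pools of a group, which limma moderates over all probe sets tested. DA was compared with control at each time, averaged over times (also by exact permutation within time) and between times, and times were compared within each treatment. Time over both treatments was added after seeing the data. The code was tested on simulated data.

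Symbols came from the platform annotation: 10795 probe sets had 1 symbol, 135 several and 4572 none, and 10711 symbols were updated through Entrez IDs. In lists, the brightest probe set stood for a gene. All member probe sets were reported; from each list, genes past the threshold in a DA comparison or else up to 3 with the smallest p at a time could be named, and for likeness the 5 genes with the highest Pearson r. The vim and further probe set values were chosen after they were seen. Genes called between times over both treatments were also named. Leaving out both doubted 24 h arrays was not planned. The members and lists were chosen with earlier results of these data known. Alternatives covered scaling, variance modelling, array weights, replicate number as a block, technical covariates, other probe set rules and left-out arrays. The third 48 h control was not analysed here.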

Additional observations from a re-analysis of the deposited data

How the results depend on the processing

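Over 692 DA differences of the 6 probe sets under alternatives, the lowest adjusted p was 0.247 and 0 were under 0.05. Signs of differences near 0 turned as follows, on the log2 scale. Median centring gave -0.0021 for slc1a2b and -0.0077 for fabp7a at 48 h. Cyclic loess gave -0.012 for slc1a2b at 168 h and -0.0048 for the cyp19a1b mean over times. Array weights gave -0.044 for the cyp19a1b a_at probe set and 0.0017 for fabp7a at 24 h, -0.032 for gfap and -0.050 for slc1a2b at 168 h, and -0.026 for the cyp19a1b mean. Adjusting for the spike-ins, the 24 h differences were -0.15 (gfap), 0.055 (the x_at probe set) and 0.10 (slc1a2b). Those at 48 h were -0.085 (gfap), 0.14 (cyp19a1b), 0.040 (the x_at probe set) and -0.010 (fabp7a), that at 168 h was -0.0044 (slc1a2b), and the means were -0.064 (gfap), 0.054 (the x_at probe set) and 0.089 (slc1a2b). The GAPDH covariate gave -0.076 for the a_at probe set at 24 h, -0.015 for slc1a2b and -0.0074 for fabp7a at 48 h, and -0.074 for the cyp19a1b mean. The blank covariate gave -0.0070 for the a_at probe set and 0.076 for fabp7a at 24 h, and -0.016 for fabp7a at 48 h. Without both doubted 24 h arrays, the a_at probe set was at -0.074 at 24 h and the cyp19a1b mean at -0.072; averaging the cyp19a1b probe sets gave a mean of -0.026. The cause was not tested.

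Whether shared replicate numbers pair the arrays was not settled. Deviations of same-numbered DA and control arrays correlated at -0.33 to 0.22, above 0.1 in 2 of 8 pairs. Deviations within groups this small cannot decide it. Of the 5 arrays low for mdkb, given below, all but control 24 h replicate 2 were replicate 1. With the replicate block, cyp19a1b at 48 h was 0.032, the slc1a2b mean 0.0070 and the fabp7a time difference 0.39 (adjusted p = 0.0735), and the block changed no other call of these probe sets.

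For the time differences over both treatments, gfap (48 h minus 24 h) no longer passed with median centring (0.51, adjusted p = 0.0623), repeated quantile normalization (0.46, 0.0718), loess (0.46, 0.0584), a trended robust prior (0.51, 0.0524), the spike-in (0.35, 0.377) or the blank covariate (0.50, 0.117). For fabp7a (168 h minus 24 h) the same held for median centring (0.39, 0.0855), the trended prior (0.39, 0.0537), array weights (0.33, 0.0977), the spike-in (0.38, 0.346), GAPDH (0.37, 0.0907) and blank covariates (0.33, 0.0674) and without both doubted arrays (0.33, 0.0983). For slc1a2b (168 h minus 48 h) it held for quantile normalization (-0.22, 0.189), loess (-0.27, 0.0682) and the spike-in (-0.41, 0.0511). The test of any time difference over both treatments called 1 of the 6 with median centring, quantile normalization or GAPDH, 0 with the spike-in or blank covariate, 3 at an adjusted p of 0.1 and 0 to 2 with an array left out; array weights called 2 for time in DA, and averaging treatments called 2 where controls alone called 0.

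With each array left out in turn, the DA difference at 24, 48 and 168 h and the mean ranged as follows. For gfap it was -0.11 to 0.18, -0.084 to 0.38, -0.025 to 0.13 and -0.0071 to 0.15. For cyp19a1b it was 0.050 to 0.43, -0.14 to 0.020, -0.26 to -0.11 and -0.061 to 0.065. For the a_at probe set it was -0.024 to 0.16, -0.14 to -0.026, -0.15 to 0.020 and -0.059 to 0.0053. For the x_at probe set it was -0.16 to -0.031, -0.27 to -0.041, -0.018 to 0.24 and -0.096 to -0.0045. For slc1a2b it was -0.14 to 0.085, -0.0075 to 0.049, -0.13 to 0.18 and -0.048 to 0.055. For fabp7a it was -0.11 to 0.066, -0.078 to 0.13, 0.0088 to 0.21 and -0.0079 to 0.068. The time differences ranged over 0.39 to 0.62 (gfap), 0.34 to 0.44 (fabp7a) and -0.53 to -0.37 (slc1a2b). The number of arrays limits the precision, and gfap was not above the brightest blank on 3 of 17 arrays.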

Other observations

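The growth factor midkine b (mdkb), a gene of the radial glia list singled out after its values were seen, split the arrays into separate levels. It was at 9.15 to 9.50 on 5 arrays (DA 168 h replicate 1, control 24 h replicates 1 and 2, control 48 h replicate 1 and control 168 h replicate 1) and at 10.9 to 12.3 on the other 12. The DA minus control difference was 1.52 at 24 h (adjusted p = 0.422), 1.26 at 48 h (adjusted p = 0.99996) and -0.14 at 168 h (adjusted p = 0.999).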
